A study of Mus musculus with 12 samples.

Results

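Cytosolic ribosomal proteins coat and stabilise the ribosomal RNA of the ribosome, the particle that reads messenger RNA into protein. Their genes were taken by symbol from the deposited count table: every Rpl, Rps or Rplp symbol followed by a number, together with Rpsa, and without names that carry -ps. The rule found 89 of 55401 genes, 53 of the large subunit and 36 of the small subunit. By the GENCODE annotation and their names, 77 are core genes (46 large, 31 small), 6 are paralogues of a core gene (Rps27l, Rpl22l1, Rpl7l1, Rpl39l, Rpl3l and Rpl10l) and 6 are processed copies (Rps4l, Rps12l1, Rpl32l, Rpl6l, Rps3a2 and Rps3a3). The rule leaves out ribosomal proteins with other kinds of name, of which Fau, Rack1 and Rpl36al are described beside the members.

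The RNA came from peritoneal lavage cells of C57BL/6J mice, collected in 8 mL of saline. In the first group the mice had received the ID8 (defb29/Vegf-a) ovarian cancer line intraperitoneally 7 days earlier, and in the second group the same line with added follicle-stimulating hormone receptor, written ID8-FSHR. In the third group the mice received no injection, and no sham injection is described. Each group had 4 libraries, which the series text calls biological replicates; age, sex and any pooling of mice were not given in the sources used here. The number of injected cells is 5000000 in the sample protocol and 4000000 in the series text. Each library is a mixture of tumour cells, where injected, and the resident and recruited cells of the cavity. In such bulk samples, fewer cells of a type and less RNA per cell cannot be told apart.

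Library totals ran from 47419608 to 64333677 counts. The injected line was visible in both tumour groups: Defb29 averaged 26.2 CPM (counts per 1000000 counts of the scaled library) in ID8 and 18.5 CPM in ID8-FSHR, and had 0 counts in all uninjected libraries. Fshr had 9 counts over the 4 ID8-FSHR libraries, 2 over the ID8 libraries and 0 over the uninjected libraries, which was too few to check that label. ID8-FSHR replicate 2 stood apart from the other tumour libraries on the first principal component (81.0% of the variance), at -43.2 against -96.1 to -87.4. Its summed CPM of 16 mesothelial and ID8 marker genes was the lowest of the tumour libraries, 2097 against up to 9462. Results are therefore also given without it.

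Ribosomal proteins are made in matched amounts, since each ribosome needs a copy of nearly every core protein. Their messenger RNAs typically begin with a run of pyrimidines (C and T in the DNA), the terminal oligopyrimidine or TOP motif, through which the growth regulator mTOR and the RNA-binding protein Larp1 control their translation and stability. A few members have paralogues with restricted or induced expression. Rps27l, for example, is known as a target of the tumour suppressor p53.

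The sequences around the annotated starts are shown for the members on which the results turn: small-subunit genes with large falls (Rps27, Rps24), proteins of the ribosomal stalk (Rplp0, Rplp2), the paralogues that fell least or rose (Rps27l, Rpl22l1, Rpl7l1) with the parent gene Rpl22, and Rpl37, a core gene that fell little. Each window holds 30 bases of GRCm38.p6, 15 before and 15 from the start RefSeq lists farthest upstream, 5′ to 3′ on the gene's strand. Capitals mark the longest unbroken run of C and T.
Rps27: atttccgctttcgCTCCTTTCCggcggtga
Rps24: cccgcgctggggTCCTTCCTTgcgcgttga
Rplp0: gTCTTCgggtttcgaggaccgcctggttct
Rplp2: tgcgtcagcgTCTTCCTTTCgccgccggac
Rpl22: cgctgCTTCTggaatgttccagctcccact
Rpl22l1: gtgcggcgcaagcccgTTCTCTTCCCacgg
Rps27l: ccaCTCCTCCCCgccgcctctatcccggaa
Rpl7l1: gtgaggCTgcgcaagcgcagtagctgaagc
Rpl37: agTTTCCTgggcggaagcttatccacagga

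These windows lie at chr3:90213634-90213663 (minus strand) for Rps27, chr14:24490663-24490692 (plus) for Rps24, chr5:115559452-115559481 (plus) for Rplp0, chr7:141447636-141447665 (plus) for Rplp2, chr4:152324421-152324450 (plus) for Rpl22, chr3:28805493-28805522 (plus) for Rpl22l1, chr9:66946071-66946100 (plus) for Rps27l, chr17:46782642-46782671 (minus) for Rpl7l1 and chr15:5116598-5116627 (plus) for Rpl37. The C and T run was 9 bases long in Rps27 and Rps24, 10 in Rplp2 and Rpl22l1, 9 in Rps27l, 6 in Rpl37, 5 in Rplp0 and Rpl22, and 2 in Rpl7l1. In Rps27l, Rpl37, Rplp0, Rpl22 and Rpl7l1 the run lay wholly before the start used, outside a message that begins there. Run lengths in these windows are therefore not lengths of a TOP motif. The start used can also lie away from the edge of the counted gene. The Rpl22 window lies before its gene (chr4:152325742-152334071), and the Rps24 window lies within its gene (chr14:24487125-24496959). RefSeq promoters were matched for 64 of the 89 members, 57 of them core genes. In those 57 windows the longest run had a median of 6 bases, against 4 over the 27025 genes with a promoter. CTTTC stood on the gene's strand in 26.3% of the core windows and 3.99% of all windows, and on the other strand in 5.26% and 3.45%. Over the full 300 bases, on either strand, CCGGAAG stood in 40.4% of core promoters and 9.14% of all promoters, AAGATGG in 15.8% and 6.46%, TATAAA in 10.5% and 14.2%, and GGGCGG in 59.6% and 35.9%. These are matches of letters, not sites of binding.

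Rps27 and Rps27l, the pair that moved in opposite directions, are shown with the 150 bases before their starts. Capitals mark AAGATGG in Rps27 and GGGCGG in Rps27l, the only matches to those 4 motifs in these stretches. The Rps27 stretch lies at chr3:90213649-90213798 (minus strand) and the Rps27l stretch at chr9:66945936-66946085 (plus strand).
Rps27: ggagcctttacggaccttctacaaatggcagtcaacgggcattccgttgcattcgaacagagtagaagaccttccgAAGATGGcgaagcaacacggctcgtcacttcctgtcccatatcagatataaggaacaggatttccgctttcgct
Rps27l: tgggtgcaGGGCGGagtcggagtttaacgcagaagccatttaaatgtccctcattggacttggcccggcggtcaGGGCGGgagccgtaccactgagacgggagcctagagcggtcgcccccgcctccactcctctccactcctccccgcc

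Ribosomal protein messages made up a smaller share of the gene counts in libraries from the tumour-bearing cavities. The 89 members took 4.35, 4.19, 4.54 and 4.42% of all counts in uninjected replicates 1 to 4. In ID8 they took 3.00, 2.88, 2.89 and 2.77%, and in ID8-FSHR 3.42, 3.20, 2.95 and 3.09%. All tumour libraries lay below all uninjected libraries, and the 2 tumour groups overlapped. The means were 4.38% ± 0.144 (SD, n = 4) in uninjected, 2.88% ± 0.0949 in ID8 and 3.16% ± 0.199 in ID8-FSHR. The overlap of the tumour groups depended on the total used. With the 10 most abundant genes left out of it, the shares were 3.13 to 3.33% in ID8 and 3.34 to 3.75% in ID8-FSHR, without overlap.

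Summed over genes, the small subunit lost more of its share than the large subunit. Core small-subunit genes went from 1.94% ± 0.0654 of counts in uninjected to 1.18% ± 0.0428 in ID8 and 1.29% ± 0.0874 in ID8-FSHR (SD, n = 4). Core large-subunit genes went from 2.42% ± 0.0794 to 1.68% ± 0.0520 and 1.85% ± 0.114. The ratio of small- to large-subunit counts was 0.794 to 0.808 in uninjected, 0.699 to 0.709 in ID8 and 0.688 to 0.728 in ID8-FSHR. The uninjected ratios did not overlap with those of either tumour group, and ID8-FSHR replicate 2 gave the value of 0.728. Since these are sums over members, no test was made on them.

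**Figure D1:**
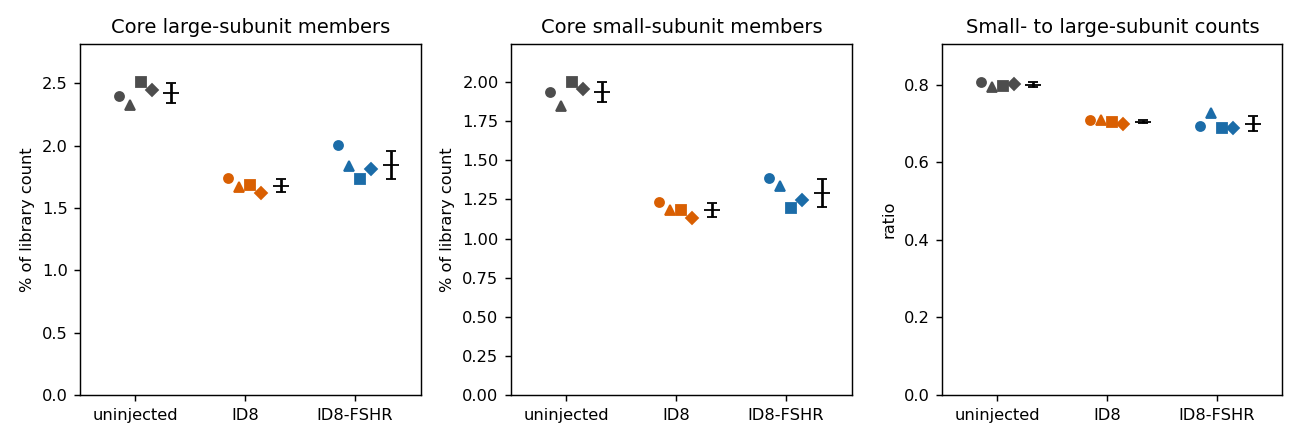
Share of each library's counts taken by core large-subunit and core small-subunit genes (vertical axes in percent) and the ratio of small- to large-subunit counts, by group; each symbol is 1 library (circle, triangle, square and diamond for replicates 1 to 4) and the bar is the mean ± SD of 4 libraries. The uninjected libraries lie above all tumour libraries in the 3 plots.

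In ID8 cavities the fall ran through nearly the whole set. Of 77 core genes, all of which passed the filter on low counts, 76 fell against uninjected (edgeR quasi-likelihood test, Benjamini-Hochberg adjusted p under 0.05 over 16915 genes) and none rose. Among all 87 members tested, 83 fell, 1 rose and 3 did not pass. Of all genes tested, 31.4% fell and 32.7% rose. The groups did not overlap for 82 members that were lower, and 30.7% of all genes were lower without overlap. The median log2 fold change was -0.83 over the members and -0.03 over all genes. The spread over core genes was narrow, with quartiles of -0.94 and -0.69. Without ID8-FSHR replicate 2, which enters the shared spread and the scaling, 81 fell, 2 rose and the median was -0.74.

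ID8-FSHR cavities showed the same direction. In this group 76 of 77 core genes fell against uninjected, and over the 87 members tested 80 fell, 1 rose and 6 did not pass. Of all genes, 30.6% fell and 33.9% rose. For 78 members the groups did not overlap downwards, against 27.4% of all genes. The members' median log2 fold change was -0.68, beside 0.00 over all genes. Without ID8-FSHR replicate 2, 75 fell, 2 rose and the median was -0.61. Both tumour comparisons use the same 4 uninjected libraries and so are not independent of each other.

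By subunit, the median log2 fold change against uninjected was -0.77 in ID8 and -0.61 in ID8-FSHR over the 46 core large-subunit genes. Over the 31 core small-subunit genes it was -0.92 and -0.79. All 31 small-subunit genes fell in both comparisons, and 45 of 46 large-subunit genes did, Rpl7 being the exception. Core genes with a small nucleolar RNA gene within them (30 genes) had a median of -0.84 in ID8, and the 47 others -0.83. Neither level nor exon length ordered the changes: Spearman's rho across the 77 core genes was -0.05 with mean CPM and -0.08 with exon length in ID8, given as a description of genes that share the same libraries. For the 57 core genes with a start window, rho between the fold change and the length of the C and T run was 0.16 in ID8 and 0.27 in ID8-FSHR. The run may lie before the start, so these values do not describe the TOP motif itself. Core genes without a window include Rpl7, Rpl8 and Rpl30, which fell little or not at all, so rho leaves out part of the upper end.

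**Figure D2:**
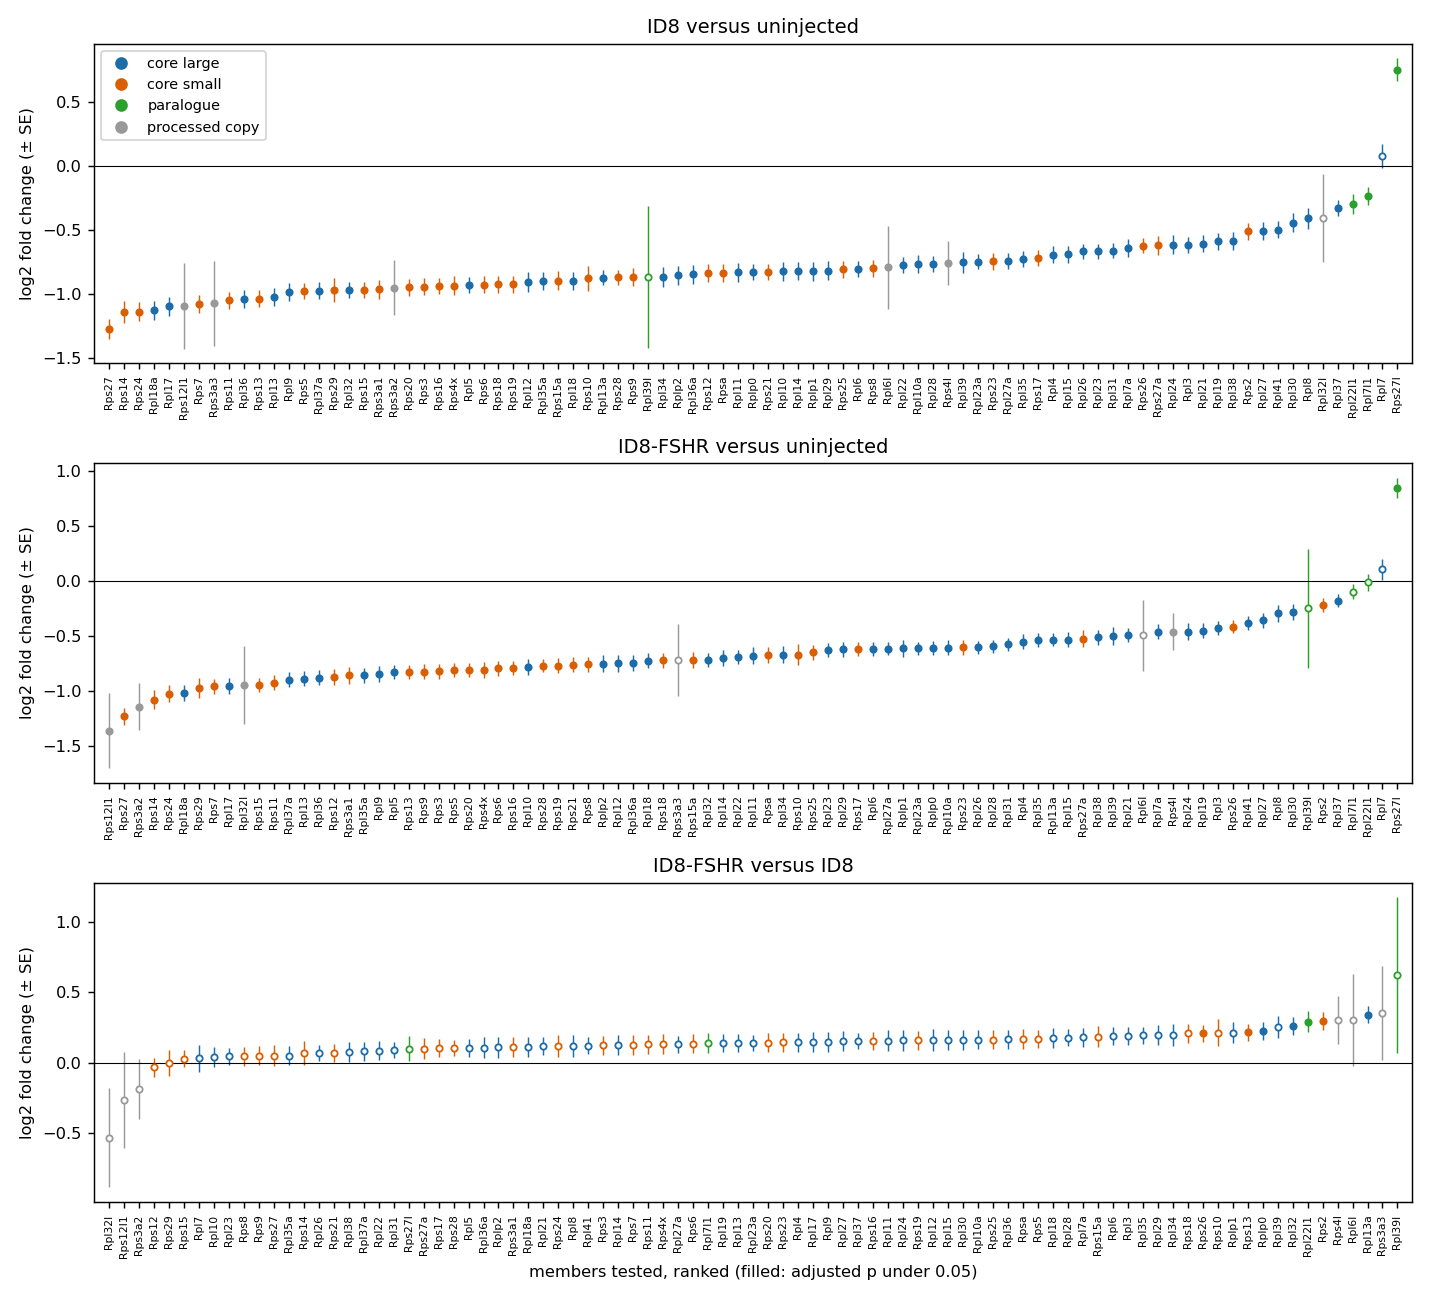
Log2 fold change ± SE of the 87 tested members, ranked within each comparison and coloured by class; filled points passed an adjusted p under 0.05. Nearly all points lie below 0 in both comparisons with uninjected, with Rps27l alone well above 0, whereas most points lie slightly above 0 in ID8-FSHR versus ID8.

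Rps27, a zinc-finger protein of the small subunit, fell the most of the core genes. It is encoded at chr3:90212522-90213651 in GRCm38. Its level was 684, 646, 719 and 701 CPM in uninjected replicates 1 to 4, 295, 273, 301 and 267 CPM in ID8, and 332, 286, 270 and 287 CPM in ID8-FSHR. The highest tumour library was far below the lowest uninjected library, and the tumour groups overlapped. The log2 fold change was -1.28 ± 0.077 (SE) in ID8, with an edgeR adjusted p of 1.9e-08, and -1.23 ± 0.077 in ID8-FSHR, with an edgeR adjusted p of 2.8e-08.

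Rps24, another small-subunit protein, was at 1172, 1151, 1271 and 1231 CPM in uninjected, 575, 551, 545 and 523 CPM in ID8, and 610, 671, 550 and 549 CPM in ID8-FSHR. It was lower in every tumour library than in any uninjected one, with log2 fold changes of -1.14 ± 0.078 and -1.02 ± 0.078. Rps14, also of the small subunit, was at 611 to 705 CPM in uninjected, 285 to 322 CPM in ID8 and 284 to 359 CPM in ID8-FSHR (log2 fold changes -1.14 and -1.07). Among large-subunit genes, Rpl17 had log2 fold changes of -1.09 and -0.95.

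Among the most abundant members by CPM, Rpl4, a protein that lines the exit tunnel, went from 1626 CPM ± 80.4 (SD, n = 4) to 1006 ± 31.0 in ID8 and 1112 ± 55.5 in ID8-FSHR. Rpsa, a small-subunit protein also known as the laminin receptor, was at 1431, 1296, 1473 and 1393 CPM in uninjected, 836, 790, 731 and 780 CPM in ID8, and 858, 962, 835 and 867 CPM in ID8-FSHR. Its log2 fold changes were -0.83 ± 0.073 and -0.67 ± 0.073. Rps4x, encoded on the X chromosome, went from 1356 CPM ± 66.5 to 710 ± 29.6 and 777 ± 58.2, and Rps3a1 from 1301 CPM ± 73.1 to 667 ± 40.9 and 720 ± 45.3. All 4 fell in both comparisons.

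The stalk, which recruits translation factors to the large subunit, is formed by Rplp0, Rplp1 and Rplp2. Rplp0 was at 1354, 1237, 1389 and 1368 CPM in uninjected, 762, 745, 741 and 760 CPM in ID8, and 909, 907, 845 and 852 CPM in ID8-FSHR. The 3 groups did not overlap: uninjected was highest, ID8-FSHR between and ID8 lowest. Its log2 fold changes against uninjected were -0.83 ± 0.063 and -0.61 ± 0.063. Rplp1 fell by 0.82 and 0.61 on the log2 scale, and Rplp2 by 0.85 and 0.75.

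Levels per kilobase used the merged length of all annotated exons of a gene, which can exceed the length of its message. That length was 6256 bases for Rps24 and 499 for Rplp1, so the order of genes partly follows the annotation. The levels differed widely although the proteins are needed in matched amounts, and how much of this comes from the lengths was not tested. In uninjected libraries the median over core genes was 312 CPM per kilobase. Rps3a1 (1331), Rplp1 (1172) and Rps15 (1056 CPM per kilobase) were highest. Rps10 (14.9), Rpl13a (40.7) and Rpl24 (46.9 CPM per kilobase) were lowest. Ribosomal protein genes have many near-identical copies in the genome, so reads can be split between a gene and its copies or discarded, and the handling of such reads was not given in the sources used here. The copies named -ps took 0.00534 to 0.00839% of counts per library.

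Rpl7, an RNA-binding protein of the large subunit, was the core gene that did not pass the test. It was at 1049, 979, 1097 and 1103 CPM in uninjected, 1159, 1055, 1134 and 1124 CPM in ID8, and 1328, 937, 1131 and 1169 CPM in ID8-FSHR. The groups overlapped, and within ID8-FSHR replicate 1 was highest and replicate 2 lowest. The log2 fold change was 0.08 ± 0.095 in ID8 (edgeR adjusted p = 0.48) and 0.11 ± 0.095 in ID8-FSHR (edgeR adjusted p = 0.33). Without ID8-FSHR replicate 2 it passed the test upwards, with 0.17 in ID8 (edgeR adjusted p = 0.0484) and 0.30 in ID8-FSHR (edgeR adjusted p = 0.00325).

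Other core genes with small falls, the 4 that fell least in ID8-FSHR, were Rpl37 (from 282 CPM ± 10.9 to 225 ± 3.91 in ID8 and 250 ± 15.8 in ID8-FSHR, log2 fold changes -0.33 and -0.17), Rpl8, a protein near the peptidyl transferase centre (-0.41 and -0.29), Rpl30 (-0.44 and -0.28) and Rps2, a protein at the messenger RNA entry site (-0.51 and -0.22). For Rpl37 the call in ID8-FSHR was lost without ID8-FSHR replicate 2 (log2 fold change -0.04), and also when uninjected replicate 3, uninjected replicate 4 or ID8-FSHR replicate 3 was left out. It was lost too with DESeq2 (adjusted p = 0.12), with median-of-ratios size factors in edgeR (adjusted p = 0.093), with no filter on low counts (edgeR adjusted p = 0.078) and with only the 2 groups compared (edgeR adjusted p = 0.059); in ID8 it was lost without TMM scaling (-0.13, edgeR adjusted p = 0.11).

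**Figure D3:**
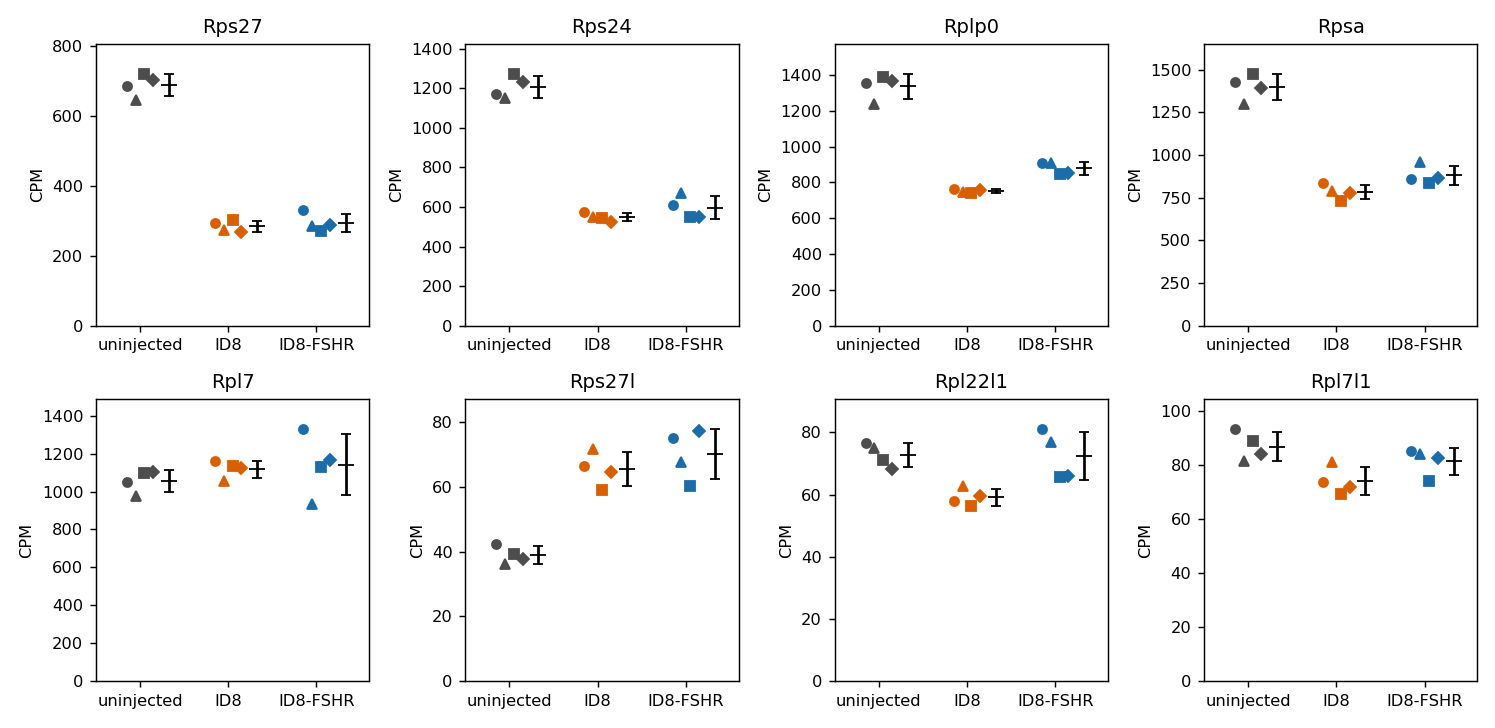
CPM of 8 members by group, vertical axes from 0; each symbol is 1 library (circle, triangle, square and diamond for replicates 1 to 4) and the bar is the mean ± SD of 4 libraries. Rps27, Rps24, Rplp0 and Rpsa lie lower in all tumour libraries, Rpl7 overlaps between groups, and Rps27l lies higher in all tumour libraries.

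The paralogues differed among themselves. Rps27l was the only member that rose. It was at 42.5, 36.1, 39.4 and 37.6 CPM in uninjected, 66.4, 71.8, 59.2 and 64.5 CPM in ID8, and 75.03, 67.6, 60.4 and 77.5 CPM in ID8-FSHR. Every tumour library was above every uninjected library, as was so for 31.8% of all genes in ID8 and 29.6% in ID8-FSHR, and the tumour groups overlapped. The log2 fold change was 0.75 ± 0.090 in ID8, with an edgeR adjusted p of 8.9e-06, and 0.85 ± 0.090 in ID8-FSHR, with an edgeR adjusted p of 2.9e-06. For every 100 counts of Rps27 there were 5.66 ± 0.376 counts of Rps27l in uninjected (SD, n = 4), 23.2 ± 2.80 in ID8 and 23.9 ± 2.09 in ID8-FSHR, 4.08 and 4.22 times the uninjected ratio by means of log2 ratios.

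Rpl22l1, the paralogue of the large-subunit protein Rpl22, was at 76.7, 75.02, 71.1 and 68.2 CPM in uninjected, 58.0, 62.7, 56.4 and 59.6 CPM in ID8, and 81.0, 77.0, 65.8 and 66.0 CPM in ID8-FSHR. Its ID8 libraries lay below both other groups, which overlapped. It fell in ID8 (log2 fold change -0.30 ± 0.078), and in ID8-FSHR the log2 fold change was -0.01 ± 0.077 (edgeR adjusted p = 0.95). Without TMM scaling the call in ID8 was lost (-0.11, edgeR adjusted p = 0.30). Its parent Rpl22 fell in both (-0.77 and -0.69). Per 100 counts of Rpl22 there were 21.0 ± 2.07 counts of Rpl22l1 in uninjected, 29.1 ± 1.78 in ID8 and 33.5 ± 2.22 in ID8-FSHR.

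Rpl7l1 was at 81.3 to 93.1 CPM in uninjected, 69.4 to 81.2 CPM in ID8 and 74.1 to 85.3 CPM in ID8-FSHR. It fell in ID8 (log2 fold change -0.23 ± 0.070, edgeR adjusted p = 0.012), and was -0.09 in ID8-FSHR. The call in ID8 was lost without ID8-FSHR replicate 2 (-0.14), with DESeq2 (-0.17, adjusted p = 0.053) and without TMM scaling (-0.036, edgeR adjusted p = 0.69). Per 100 counts of Rpl7 there were 8.22 ± 0.530, 6.64 ± 0.714 and 7.25 ± 1.17 counts of Rpl7l1 in uninjected, ID8 and ID8-FSHR.

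The ratios within a library do not depend on scaling between libraries. Over 5 pairs and 3 comparisons (15 exact two-sided permutation tests) the smallest p was 0.0286, the smallest that 4 against 4 libraries allow, and its adjusted value was 0.0857. It was reached for Rps27l to Rps27 in both comparisons with uninjected and for Rpl22l1 to Rpl22 in all 3, where the groups did not overlap. No ratio passed the threshold after adjustment.

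**Figure D4:**
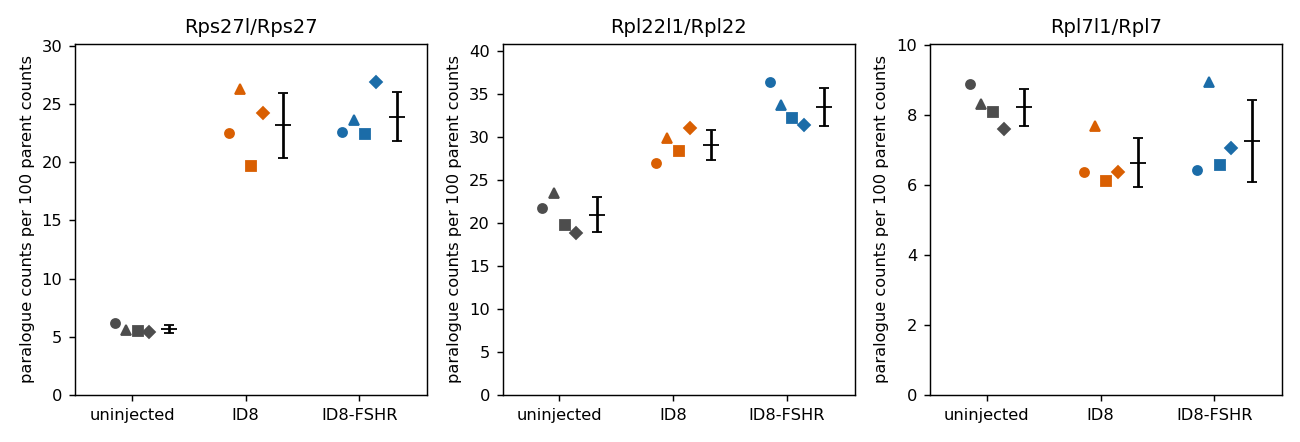
Counts of a paralogue per 100 counts of its parent gene in each library, by group, with the mean ± SD of 4 libraries; symbols are replicates 1 to 4 (circle, triangle, square, diamond). Rps27l to Rps27 goes from 5.66 in uninjected to 23.2 and 23.9, Rpl22l1 to Rpl22 from 21.0 to 29.1 and 33.5, and Rpl7l1 to Rpl7 overlaps between groups.

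The tissue-restricted paralogues were scarcely present. Rpl10l, known from testis, had 0 counts in all 12 libraries, which allows up to 0.00467 CPM by a limit of 3 counts that covers counting error only. Rpl3l, known from muscle and heart, had 4 counts over the uninjected, 6 over the ID8 and 18 over the ID8-FSHR libraries and was not tested. Rpl39l, also known from testis, was at 0.0738 to 0.808 CPM in uninjected and did not pass in any comparison. Without uninjected replicate 2 it passed as lower in ID8 (-1.23, edgeR adjusted p = 0.020). Of the 6 processed copies, 5 fell in ID8 and 4 in ID8-FSHR; none was above 12.6 CPM, and reads of their parent genes may be among theirs.

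With libraries scaled to the members' own sum, the members' unequal changes can be read directly. In ID8 versus uninjected 18 members were then higher and 18 lower, and in ID8-FSHR versus uninjected 18 and 22. In ID8, 3 of 31 core small-subunit genes were higher and 11 lower, against 12 higher and 7 lower of 46 core large-subunit genes. Among core genes and paralogues, the extremes on this scale were Rps27 (-0.48 and -0.56) and Rps27l (1.55 and 1.52), followed upwards by Rpl7 (0.88 and 0.78); the processed copy Rps12l1 was at -0.69 in ID8-FSHR. Of all genes, 66.1% were higher and 7.87% lower in ID8 on this scale, and 62.7% and 9.46% in ID8-FSHR.

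ID8-FSHR and ID8 differed less than either did from uninjected, and most members were slightly higher in ID8-FSHR. In this comparison 7 members were higher in ID8-FSHR and 0 lower, 8.05% of those tested, beside 6.04% of all genes higher and 5.56% lower. At an unadjusted p under 0.05, 34 members passed. Shares of all genes at an unadjusted p are not given here, so such counts have no comparator. For 27 of the 87 members tested the ID8-FSHR libraries were all higher, and for 0 all lower, against 7.74% and 10.8% of all genes. The members' median log2 fold change was 0.14, and 75 of 77 core genes were above 0; over all genes the median was -0.01. DESeq2 called 13 members higher, and the share of all genes it called is not given here, so that count has no comparator. With libraries scaled to the members' sum the count was 0 by edgeR (3 at an unadjusted p under 0.05), beside 3.69% of all genes higher and 12.2% lower.

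The 7 members were Rpl13a (0.34 ± 0.059), Rps2 (0.29 ± 0.064), Rpl22l1 (0.29 ± 0.077), Rpl32 (0.26 ± 0.064), Rplp0 (0.22 ± 0.063), Rps13 (0.21 ± 0.063) and Rps26 (0.21 ± 0.060), all as log2 fold changes with SE. Rpl13a, known also for control of inflammatory messages outside the ribosome, was at 47.5, 46.4, 49.3 and 44.7 CPM in ID8 and 55.9, 60.4, 61.3 and 60.6 CPM in ID8-FSHR, without overlap. Rps2 was at 525, 535, 490 and 516 CPM in ID8 and 643, 654, 597 and 639 CPM in ID8-FSHR, also without overlap. The count was 2 without ID8 replicate 1, 3 or 4, 6 without ID8-FSHR replicate 2, and 4 when any of uninjected replicates 1, 3 and 4 or ID8-FSHR replicate 4 was left out. The shares of all genes called in these fits are not given here. Rplp0 lost its call in 10 of the 12 fits that leave out 1 library, and Rpl22l1 lost it without ID8 replicate 1, 3 or 4.

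Lists of other genes of the translation machinery had medians against uninjected nearer to 0 than that of the members, or above 0, although single genes fell as far. Of all genes, 31.4% fell and 32.7% rose in ID8, and 30.6% fell and 33.9% rose in ID8-FSHR. The ribosomal proteins Fau (-0.81 and -0.79), the signalling scaffold Rack1 (-0.65 and -0.56) and Rpl36al (-0.52 and -0.39) fell in both comparisons with uninjected. Of 22 other messages known to carry a TOP motif, 16 fell and 3 rose in ID8, and 10 fell and 4 rose in ID8-FSHR, with medians of -0.34 and -0.18; Fau and Rack1 are in this list too. Tpt1, a growth-related TOP message, was at 2297 to 2454 CPM in uninjected, 1217 to 1319 CPM in ID8 and 1098 to 1406 CPM in ID8-FSHR (-0.91 and -0.96).

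Among 40 translation factors, 13 fell and 11 rose in ID8 (median -0.02), and 8 fell and 16 rose in ID8-FSHR (median 0.08). These counts stood beside 31.4% of all genes lower and 32.7% higher in ID8, and 30.6% and 33.9% in ID8-FSHR. Eef1a1, which brings aminoacyl transfer RNA to the ribosome, went from 8195 to 9142 CPM in uninjected to 5519 to 5932 CPM in ID8 and 5962 to 6376 CPM in ID8-FSHR (-0.59 and -0.52). Eef2, the translocase, fell by 0.54 and 0.51 on the log2 scale. The initiation factor subunits went apart, with Eif3f at -0.78 and -0.70 and Eif3l at 0.61 and 0.81.

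Of 50 ribosome biogenesis genes, 14 fell and 11 rose in ID8 (median 0.00), and 10 fell and 16 rose in ID8-FSHR (median 0.07). Brix1, an assembly factor of the large subunit, rose by 0.82 ± 0.091 and 0.96 ± 0.091 on the log2 scale. Mitochondrial ribosomal proteins, which serve the separate ribosome of that organelle, had medians above 0: 37 of 77 rose, 3 fell and 37 did not pass in ID8 (median 0.23), and 48 rose, 2 fell and 27 did not pass in ID8-FSHR (median 0.32). Over all genes, 32.7% rose and 31.4% fell in ID8, and 33.9% rose and 30.6% fell in ID8-FSHR. Mrpl13, for example, was at 18.5 to 23.0 CPM in uninjected, 46.9 to 52.0 CPM in ID8 and 47.3 to 59.1 CPM in ID8-FSHR.

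Of 21 genes known to regulate ribosomal proteins or to sense their balance, 8 fell and 6 rose in ID8, and 8 fell and 4 rose in ID8-FSHR. Over all genes, 31.4% fell and 32.7% rose in ID8, and 30.6% fell and 33.9% rose in ID8-FSHR. Between the tumour groups, 6.04% of all genes were higher and 5.56% lower in ID8-FSHR. Myc, a transcription factor that raises ribosome production, was at 119, 114, 176 and 116 CPM in uninjected, 91.6, 99.1, 59.6 and 78.6 CPM in ID8, and 86.1, 91.2, 78.1 and 88.5 CPM in ID8-FSHR. It was lower in every tumour library, with log2 fold changes of -0.67 ± 0.162 and -0.61 ± 0.162. Mtor was at 61.2 to 67.0 CPM in uninjected, 93.6 to 105 CPM in ID8 and 73.5 to 91.9 CPM in ID8-FSHR, a rise of 0.62 ± 0.072 and 0.40 ± 0.072. Larp1 was 0.17 ± 0.082 in ID8 (edgeR adjusted p = 0.091) and 0.23 ± 0.082 in ID8-FSHR (edgeR adjusted p = 0.026). Its calls were not stable: in ID8 it passed with DESeq2 (0.23, adjusted p = 0.016), with 4 other scalings or designs, and without ID8 replicate 3 (0.24) or ID8-FSHR replicate 2 (0.25), and in ID8-FSHR it no longer passed when uninjected replicate 1 (0.22), 2 (0.22) or 4 (0.21) or ID8-FSHR replicate 4 (0.19) was dropped. Of 15 p53 target genes, a list without Rps27l, 12 rose and 1 fell in ID8, and 10 rose and 2 fell in ID8-FSHR; between the tumour groups 1 was higher and 11 lower in ID8-FSHR.

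**Figure D5:**
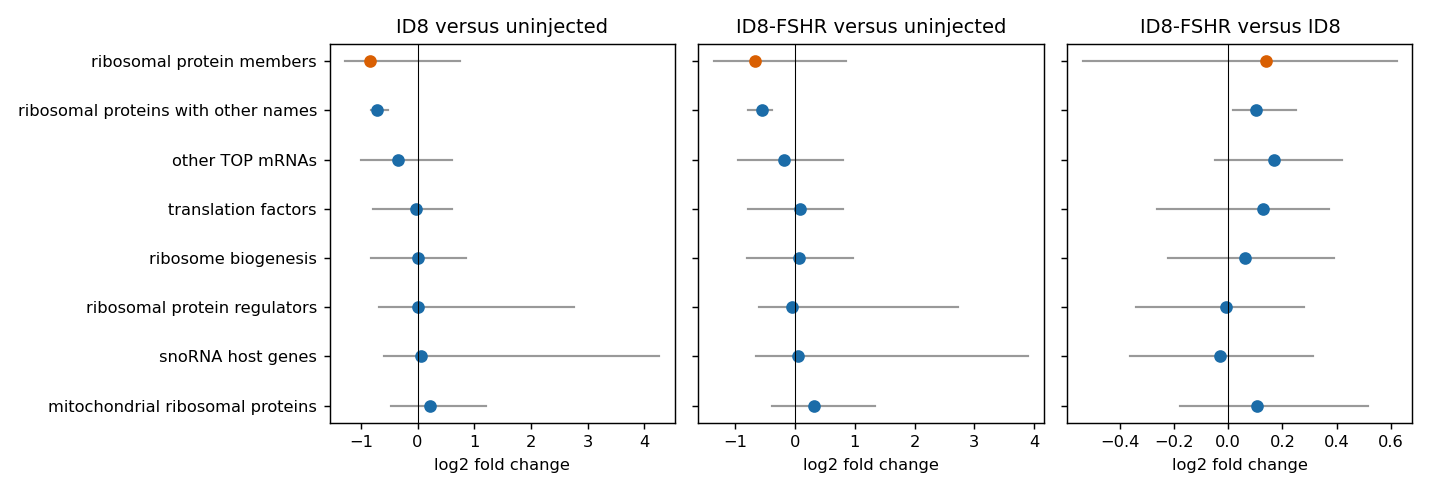
Median (point) and range (line) of the log2 fold change over the tested members and over 7 other gene lists, in each comparison. The members' medians are -0.83 and -0.68 against uninjected, those of the mitochondrial ribosomal proteins 0.23 and 0.32.

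Markers of several cell types moved with the groups, and other lists were mixed. The shares of all genes were 31.4% lower and 32.7% higher in ID8, and 30.6% and 33.9% in ID8-FSHR. Between the tumour groups they were 5.56% lower and 6.04% higher in ID8-FSHR. The summed CPM of 15 B cell markers was 6869 to 8858 in uninjected, 802 to 1195 in ID8 and 719 to 1233 in ID8-FSHR, and all 15 fell in both comparisons. The sum of 15 large peritoneal macrophage markers was 19691 to 24193, 9060 to 11762 and 6124 to 10777 CPM. Of these 15, 13 fell and 1 rose in ID8, and 11 fell and 1 rose in ID8-FSHR. The sum of 16 mesothelial and ID8 markers was 25.4 to 29.1, 7397 to 9462 and 2097 to 6109 CPM, and that of 12 genes of dividing cells was 180 to 276, 467 to 679 and 1446 to 2010 CPM. Of 10 NK cell markers, all 10 passed as higher in ID8-FSHR than in ID8. Their sum was 27.6 to 43.3, 18.1 to 55.5 and 34.7 to 254 CPM, so the tumour groups overlapped. ID8-FSHR replicate 1, at 34.7 CPM, lay below ID8 replicate 1, at 55.5 CPM. The sum of 15 T cell markers was 270 to 621, 119 to 144 and 163 to 311 CPM; 13 fell in ID8 and 3 in ID8-FSHR, and 5 were higher and 0 lower in ID8-FSHR than in ID8, with a median log2 fold change of 1.05 between the tumour groups. None of the B cell, T cell, NK cell, macrophage, mesothelial or dividing cell markers was at 0 in any group. Of 10 neutrophil markers, 1 rose and 1 fell in each comparison with uninjected, and 0 of 6 tested erythroid markers passed. Small macrophage and monocyte markers (10) had 5 falling and 0 rising in ID8, and 3 and 2 in ID8-FSHR. Mast cell markers (10) had 5 falling and 1 rising, then 6 and 1. Dendritic cell markers (10) had 5 and 1, then 5 and 2. Fibroblast markers (8 tested) had 2 and 6, then 0 and 5. Of 3 tested eosinophil markers, 1 fell in each. The part of these markers in the ribosomal protein results was not tested.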

How the data were processed

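The deposited table holds raw counts per gene for 12 libraries. Per the labels' protocols, 100 ng of RNA went into a Roche KAPA HyperPrep library with ribosomal RNA removal. Per the submitters' processing notes, bcl2fastq 2.20, STAR 2.7.9a, and featureCounts of Subread 1.6.4 were used with build GRCm38.p6; strand and multi-mapping settings were not given in the sources used here. Of 55401 identifiers, 54349 matched GENCODE M21 with version, all 89 members among them.

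Genes kept by filterByExpr (16915) were tested with edgeR 4.0.16 (quasi-likelihood, robust, TMM scaling, Benjamini-Hochberg over all genes, adjusted p under 0.05), with all 12 libraries in 1 fit and group as the only term. CPM are counts over the TMM-scaled library size. Paralogue ratios, with 0.5 added to each count, were compared by exact permutation in SciPy 1.17.1 where both genes had at least 10 counts in 4 libraries. P-values measure the spread between these libraries. The fit was tested on simulated counts in which few genes changed, equally up and down and in 1 group. In these data a large share of all genes changed, so that test does not cover the scaling here. No 2 libraries of a group agreed within sampling noise. Alternatives were DESeq2 1.42.0, limma 3.58.1, other scalings, filters and designs, and leaving out each library.

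Full values went to the 5 members with the highest and the 5 with the lowest log2 fold change of each comparison, the 5 most abundant, the stalk genes, Rpsa and the paralogues; genes outside the set came from lists, at most 3 by adjusted p, plus 11 chosen by name; 2 genes are not reported here. The members and lists were chosen with earlier results of these data known. Start windows and promoters came from RefSeq (GRCm38.p6).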

Additional observations from a re-analysis of the deposited data

Results flagged for a closer look

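Within groups of 4 libraries, 10 of 129 groups of values had a highest or lowest library far from the other 3 (the gap over the range exceeded Dixon's 95% critical value); chance gives about 1 in 20. In uninjected, the lowest library had 2682 CPM of Eef2, 611 CPM of Rps14 and 0.664 CPM of Rpl6l, in each case replicate 2. Uninjected replicate 3 had 176 CPM of Myc, and uninjected replicate 4 had 0.741 CPM of Wt1. In ID8, replicate 2 had 7.70 counts of Rpl7l1 per 100 of Rpl7. In ID8-FSHR, replicate 2 had the highest small- to large-subunit ratio (0.728), the most Eef1a1 (6376 CPM) and the most Rpl17 (608 CPM), and replicate 4 had the most Rpl39l (0.584 CPM).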

How the results depend on the processing

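Beside the reported fit, 23 other settings were run, 1 of them (library totals without TMM) chosen after seeing the data. Shares of all genes called are given only for the reported fit and the scaling to the members' sum. Counts of members called under the other settings have no such comparator. On the median, the fall of the members against uninjected kept its direction in all settings but the scaling to the members' sum, which cannot show a common fall. The size of the fall depended on the scaling. Without TMM, the median over all genes was 0.17 in ID8 and 0.20 in ID8-FSHR (reported fit -0.03 and 0.00), the members' medians were -0.64 and -0.48, and 2 members were higher in each. Scaled to the members' sum, the medians were -0.033, -0.012 and, for ID8-FSHR versus ID8, 0.0096 (all genes 0.77, 0.66 and -0.14), which follows from the scaling itself; 18 members were then higher and 18 lower in ID8, 18 and 22 in ID8-FSHR, and 0 higher between the tumour groups. With only the 2 groups compared, ID8 had a median of -0.75 and 2 higher members. Members higher in ID8-FSHR than ID8 numbered 13 with DESeq2, 4 with no filter on low counts and 3 with only those groups; the cause was not tested.

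Leaving out 1 library at a time, the members' median was -0.87 to -0.74 in ID8, with 1 to 2 higher, and 1 to 2 members were higher in ID8-FSHR against uninjected; 2 to 7 were higher in ID8-FSHR than in ID8. Without the 10 most abundant genes in the total, the members' share was 5.16% in uninjected, 3.23% in ID8 and 3.52% in ID8-FSHR.

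Scaled to the members' sum, these named genes changed sign in ID8: Rpl37 (0.47), Rpl22l1 (0.50), Rpl7l1 (0.57), Rpl4 (0.10), Rps4l (0.036), Rack1 (0.15), Myc (0.13), Eef1a1 (0.21) and Eef2 (0.26). In ID8-FSHR they were Rpl37 (0.49), Rpl7l1 (0.57), Rpl22l1 (0.65), Rplp0 (0.059), Rpl4 (0.12), Rplp1 (0.054), Rps4l (0.20), Rack1 (0.10), Myc (0.060), Eef1a1 (0.15) and Eef2 (0.16). Rpl37 was also 0.023 in ID8-FSHR without TMM. Values past the threshold in neither fit changed sign 39 times, over 19 results, and were not counted as changes.

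The replicate numbers did not pair the libraries: same-numbered libraries correlated at -0.11 to 0.19 in their deviations, and 1 of 12 pairs was over 0.1. With the replicate number as a block, 4 members were higher in ID8-FSHR than in ID8. Depth limits Rpl3l, Rpl10l, Rpl39l and the processed copies under 3 CPM.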
